A study of Homo sapiens with 3 samples.

Results

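Cytosolic ribosomal protein genes were examined in SupB15-MR, multidrug resistant subpopulations (2 arrays), and in SupB15, their drug-sensitive parent line (1 array). SupB15 is an established BCR-ABL positive line of B-cell precursor acute lymphoblastic leukemia. SupB15-MR cells had survived mitoxantrone in medium conditioned by the HS-5 stromal line and had then been kept free of drug for months, so that they are outgrown survivors of 1 parent line; their second array is labelled as the clone SupB15-MR5. All 3 cultures were grown in normal RPMI medium with serum, and the labels call the SupB15-MR arrays biological replicates without saying how the cultures were separated. Members were taken by symbol. A gene had to be called RPL or RPS with a number and at most the letters A, L or X and a digit, or be RPLP0, RPLP1, RPLP2 or RPSA, and it had to have a probe set that the array's annotation assigns to no other gene. This gave 60 of the 19775 genes with such a probe set, 39 of the large and 21 of the small subunit, with 121 probe sets among 54675. All 121 passed the filter on low values, 1 of them, a probe set of RPS6, only through the SupB15-MR arrays. RPL5, RPL10 and RPL13A share all their probe sets with intronic snoRNA genes or other genes in that annotation, and RPLP0 and RPSA are unnamed in it, so that they were not analysed here.

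The ribosome builds every cellular protein from a small subunit, which reads the mRNA, and a large subunit, which joins the amino acids. Each ribosomal protein is needed in about equal amounts, so its gene is transcribed at a high level in dividing cells, and most of these mRNAs begin with a C and a run of pyrimidines, the terminal oligopyrimidine (TOP) start, through which mTOR signalling sets their translation. Free ribosomal proteins are quickly degraded, and some of them, such as RPL5 and RPL11, bind MDM2 and so restrain the degradation of p53 when ribosome assembly is disturbed. Several genes have a close relative (RPL22L1, RPL26L1, RPL36AL, RPL39L, RPS27L) whose protein can stand in the place of the common form in some tissues.

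TOP starts are a feature that the choice of members did not use. RefSeq start regions (GRCh38.p14, 250 bases before to 50 after the annotated start) were at hand for 52 of the 60 genes. A C within 5 bases of the annotated start on the transcribed strand, followed by at least 4 further C or T, was found in 42 of the 52 (80.8%), and in 21.1% of 27305 start regions of all genes. More C or T could lie directly before that C, so that the whole run can begin earlier. The letters CCGGAAG, the core to which ETS factors bind, lay on either strand in 19 of the 52 (36.5%) and in 10.7% of all start regions, and AAGATGGCG, a YY1 core, in 4 of the 52 (7.69%) and in 1.85%. Such matches are letters in a window and not binding sites. The windows below run from 12 bases before the annotated start through 18 bases from it on, with the run in capitals from the counted C on. Any C or T directly before that C, as in RPL29, RPL14 and RPS10, is left in lower case. They are shown for genes with large differences on a probe set in either direction, for the stalk genes, for RPS6, whose probe sets disagree, and for relatives with and without a run.
RPLP2, chr11:809955-809984 (+): cgtcggcgCCTTCCTTTTCCTCCCTgtcgc
RPL27A, chr11:8682780-8682809 (+): gcgaaggCCTTCCTTTTTCgtctgggctgc
RPL14, chr3:40457327-40457356 (+): cgggtcttCTTCCTTCTCgcctaacgccgc
RPL38, chr17:74203666-74203695 (+): ggaagtctcgttCTTTTTCgtccttttccc
RPS10, chr6:34426052-34426081 (-): cgcatgctCCTTCCTTTCCagccccggtac
RPS6, chr9:19380219-19380248 (-): cggaagttggCCCTCTTTTCCgtggcgcct
RPL29, chr3:51995878-51995907 (-): cgcagccCCTTTCTCTTCCggttctaggcg
RPL11, chr1:23691767-23691796 (+): ctcctggcccataaggCCCTCggccggaag
RPLP1, chr15:69452806-69452835 (+): taggcgcgagagCCCCTTTCCTCagctgcc
RPS27, chr1:153990750-153990779 (+): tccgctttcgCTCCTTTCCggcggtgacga
RPS27L, chr15:63157460-63157489 (-): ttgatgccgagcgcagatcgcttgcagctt
RPL22, chr1:6199578-6199607 (-): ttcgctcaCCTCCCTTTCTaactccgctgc
RPL22L1, chr3:170870178-170870207 (-): ggccgtagCTTCCTCTCTgctctcgcggcc
RPL26L1, chr5:172958717-172958746 (+): cttccaggggtcggcgaacgaaacgcggag
RPLP2 and RPL27A, whose gene means were the furthest above SupB15, and RPL29, furthest below, all carry such a run. RPS27 has one at its start and its relative RPS27L has none, nor has RPL26L1, whereas RPL22L1 has one as RPL22 does. The median difference between SupB15-MR and SupB15 was -0.23 on the log2 scale over the 42 genes with a run and -0.26 over the 10 without.

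Values are log2 expression values after RMA, the authors' normalization and summary of the probes, and each difference is a SupB15-MR array minus the SupB15 array. The array medians lay at 5.27 and 5.28 in SupB15-MR and at 5.08 in SupB15, a shift of 0.19, and centring the arrays on their medians lowers every difference by that much. SupB15 has 1 array and no spread of its own. Limma calls needed a p-value of at most 0.05 after Benjamini-Hochberg adjustment together with a 2-fold difference. That test has 1 residual degree of freedom and takes its spread from the SupB15-MR arrays alone, of which 42.7% of all probe sets, and 31 of the 121 members (25.6%), hold identical values. Identical values give small p-values by themselves. The 18S ribosomal RNA control probe sets had a median of 13.97 and 13.92 in SupB15-MR and 6.49 in SupB15, and the gap between the 3' and 5' control probe sets of ACTB was 2.59 and 2.43 in SupB15-MR and 0.80 in SupB15. For GAPDH that gap was -0.09 and -0.11 in SupB15-MR and 0.10 in SupB15. The part of these controls in the differences below was not tested. Of the markers of other cells, the log2 of the summed linear levels of 6 T cell genes was 6.90 and 6.88 in SupB15-MR and 7.29 in SupB15, that of 7 myeloid genes 7.80 and 7.41 against 7.68, that of 3 erythroid genes 5.57 and 5.68 against 5.91, and that of 6 stromal genes 7.09 and 7.02 against 7.08. The 11 precursor B cell markers measured came to 13.97 and 13.95 on that scale in SupB15-MR and 13.92 in SupB15, with 4 gene means at least 2-fold higher (RAG1 3.94, CD22 1.47, DNTT 1.46 and MME 1.17) and 3 at least 2-fold lower (VPREB1 -6.41, CD34 -6.38 and IGLL1 -2.31).

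As a group, ribosomal protein probe sets moved in both directions. Of the 121, limma called 16 higher in SupB15-MR (13.2%) and 10 lower (8.26%), beside 13.1% and 9.71% of all 46034 probe sets tested. The number called lower was 22 after median centring and 19 without probe sets of identical values, with 16 and 18 higher, and a 1-way ANOVA called 0 in either direction after adjustment. Shares of all probe sets under these settings are not given, so that these counts are no result about ribosomal protein genes. Without a test, 18 (14.9%) were at least 2-fold higher in both SupB15-MR arrays and 18 (14.9%) at least 2-fold lower, beside 18.3% and 15.0% of all. These shares lay near or below those of the whole array and are no result about ribosomal protein genes. The 18 higher, here and in the counts by level and design record below, include the RPS6 probe set kept only through the SupB15-MR arrays. The median difference was -0.23 over the members and 0 over all probe sets tested, and the middle of the members spread less, from -0.76 to 0.34, than that of all probe sets, from -0.55 to 0.75, at its upper end. Both SupB15-MR arrays lay below the SupB15 array for 68 of the 121 (38.2% of all probe sets) and above it for 42 (45.5% of all). By gene, with the mean taken over all probe sets of a gene, 8 of 60 were at least 2-fold higher in both arrays, beside 10.9% of all genes, and 8 at least 2-fold lower, beside 9.64%.

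**Figure D1:**
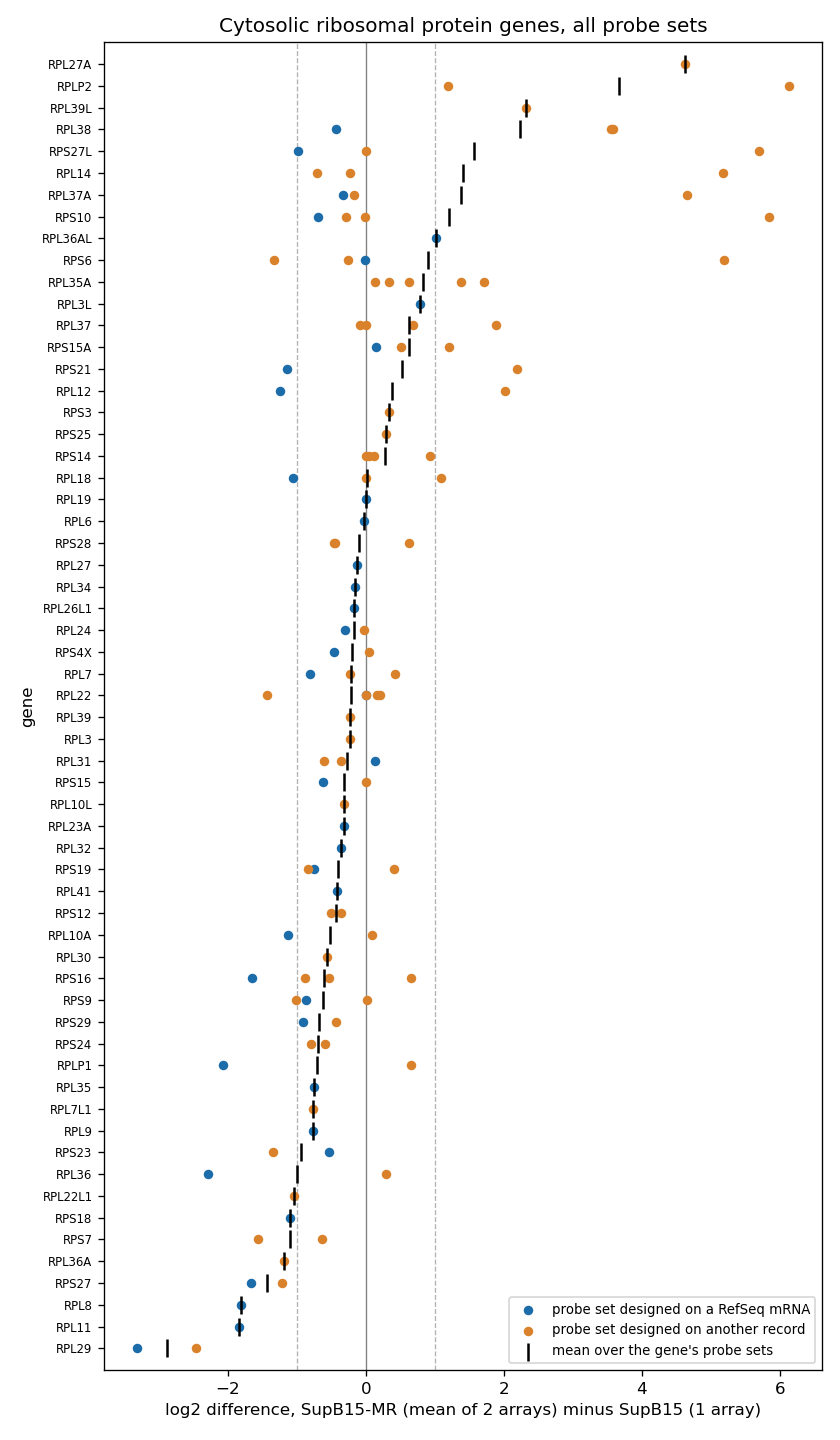
Log2 difference between SupB15-MR (mean of 2 arrays) and SupB15 (1 array) for each of the 121 probe sets of the 60 genes, ordered by the gene mean (black bar), with the dashed lines at 2-fold. Dots of 1 gene lie far apart in several rows, and the 40 probe sets designed on a RefSeq mRNA (blue) include none at least 2-fold higher in both SupB15-MR arrays.

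Bright and dim probe sets were also described apart. Most mRNAs of ribosomal proteins are abundant, and 68 of the 121 probe sets, from 49 genes, had a mean over the 3 arrays of at least 11, a limit set after the values were seen. That mean contains the difference itself, so that a probe set far below its SupB15-MR level in SupB15 falls under the limit more easily, as those of RPLP2, RPS10, RPL27A and RPL37A did at 10 to 11. The counts on either side are therefore a description and no sign that level and direction are tied. Of these 68, 49 lay below SupB15 in both SupB15-MR arrays and 13 above. At least 2-fold lower were 12 (17.6%) and at least 2-fold higher 2 (2.94%). Of all 813 probe sets at that level 12.9% were lower and 16.1% higher. Their median difference was -0.39, and that of the 813 was -0.07. Between 11 and 12 the members' median was -1.10 (12 probe sets) and that of all probe sets -0.02; between 12 and 13 the values were -0.73 (20 probe sets) and -0.06; and above 13 they were -0.23 (36 probe sets) and -0.14. The 53 probe sets below 11 had a median of 0.29, with 16 past 2-fold upward and 6 downward. In the bands of level from 4 to 11, 15.2% to 26.0% of all probe sets were higher and 12.8% to 18.6% lower. Of the 8 at 10 to 11, 5 were at least 2-fold higher and 2 lower, with a median of 3.41. Of all 1051 probe sets at 10 to 11, 23.2% were higher and 15.0% lower, with a median of 0.08.

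**Figure D2:**
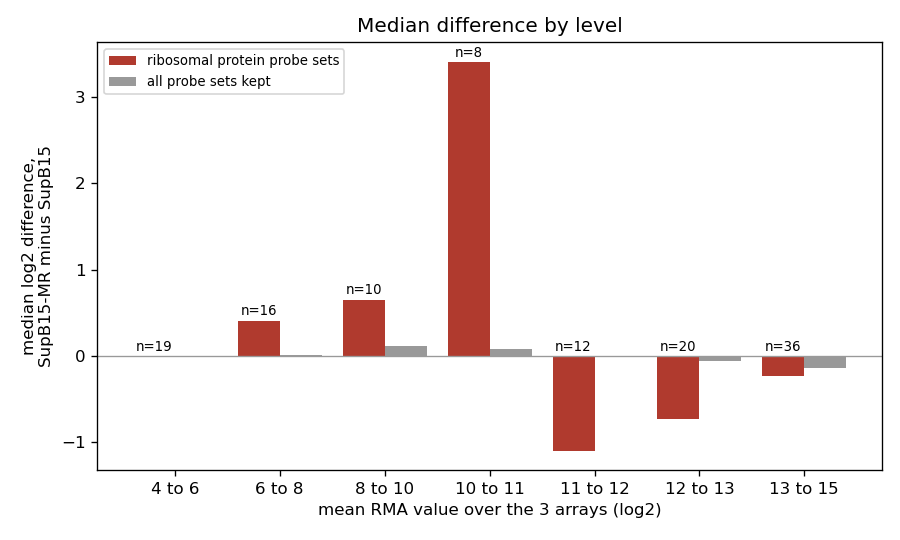
Median log2 difference between SupB15-MR and SupB15 by the mean level over the 3 arrays, for ribosomal protein probe sets (red, n above the bar) and all probe sets kept (grey). The red bars lie at or above 0 below a level of 11 and below 0 from 11 on, down to -1.10 between 11 and 12.

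The record on which a probe set was designed divided the members as well. Of the 121, 40 were designed on a RefSeq mRNA and 81 on another sequence record. None of the 40 was at least 2-fold higher in both SupB15-MR arrays and 10 were at least 2-fold lower, with a median of -0.66; of all 8837 probe sets of that kind, 14.8% were higher and 16.4% lower, with a median of 0. Limma called 1 of the 40 higher, that of RPL36AL, and 5 lower. Limma shares over all probe sets of that kind are not given, so that these calls are no result about ribosomal protein genes. Among the 81 on other records, 18 were higher and 8 lower, with a median of 0, beside 19.1% and 14.6% of 37197. Kind of record and level overlap, since 36 of the 40 had a mean of at least 11, against 32 of the 81. By the array's own name endings, which mark probe sets that may also bind transcripts of related sequence, 46 had neither ending, with 9 higher, 8 lower and a median of 0; 39 had the ending s_at, with 4 higher, 7 lower and a median of -0.42; and 36 had the ending x_at, with 5 higher, 3 lower and a median of -0.23. Processed copies of ribosomal protein genes are common in the human genome, so that the signal of such probe sets can come from more than 1 transcript. Shares of all probe sets by name ending are not given, so that the counts by ending are no result about ribosomal protein genes.

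In the stalk of the large subunit, which recruits the elongation factors, the 2 genes measured went opposite ways on their brighter probe sets. RPLP2 had 12.66 and 12.71 in the SupB15-MR arrays and 6.55 in SupB15 on its main probe set. Both SupB15-MR values lay far above that of SupB15, a rise of 6.14 on the log2 scale (standard error 0.0361, adjusted p = 0.00298 from limma), the largest among the 121 probe sets. Its other probe set had 6.28 and 6.12 in SupB15-MR and 5.0 in SupB15 (1.20, adjusted p = 0.0586 from limma). RPLP1, its partner in the stalk, had 11.18 and 11.14 in SupB15-MR and 13.22 in SupB15. Limma called this difference of -2.06 (standard error 0.0249, adjusted p = 0.00671), and a dim second probe set had a difference of 0.66.

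Elsewhere in the large subunit, RPL27A had 12.42 and 12.47 in SupB15-MR and 7.82 in SupB15 on its only probe set. This rise of 4.62 (standard error 0.0369, adjusted p = 0.00420 from limma) made it the gene with the highest mean difference. RPL14, RPL37A and RPL38 rose on some probe sets and had small differences on others. For RPL14 a single probe set had 11.27 and 11.22 in SupB15-MR and 6.07 in SupB15, a rise of 5.18 (adjusted p = 0.00388 from limma). The other 2 probe sets of RPL14, which were the brighter ones in SupB15 at 12.64 and 13.16, had differences of -0.71 and -0.23. RPL38 had a pair of probe sets with rises of 3.58 and 3.55 and a further one, at 13.28 in SupB15, with -0.44. RPL37A had one with a rise of 4.66 (12.26 and 11.77 in SupB15-MR and 7.36 in SupB15), one with -0.33 at 14.12 in SupB15, and a dim one with -0.18. In each of these genes the probe set that was brightest in SupB15 was lower in both SupB15-MR arrays, by less than 2-fold. With each gene represented by that probe set, 3 of the 60 genes were at least 2-fold higher in both SupB15-MR arrays, RPLP2, RPL27A and RPL39L. At least 2-fold lower were 10, and the median over genes was -0.36. This choice uses the SupB15 value that is then subtracted, so it favours lower differences by itself. The brightest probe set over the 3 arrays gave the same counts and median. Shares of all genes under either rule are not given, so that these counts are no result about ribosomal protein genes.

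**Figure D3:**
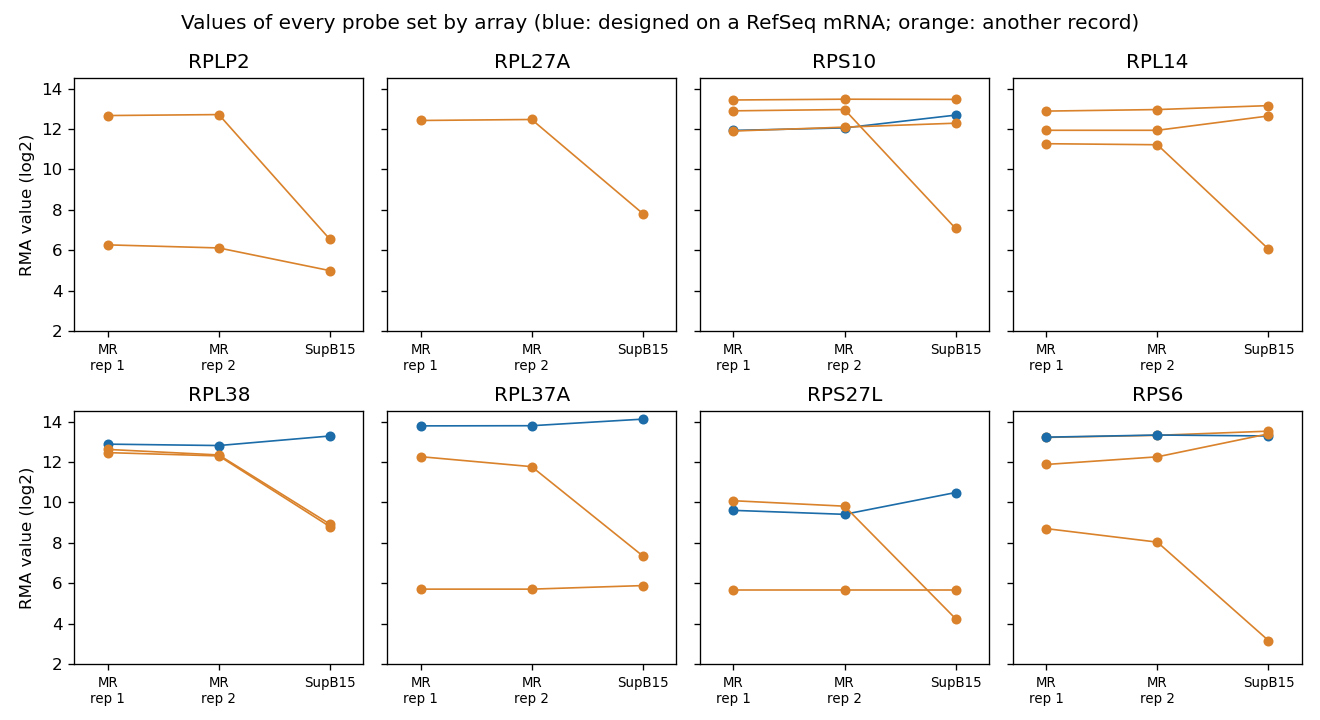
RMA values on the log2 scale of every probe set of 8 genes in the 2 SupB15-MR arrays (MR on the axis) and in SupB15, 1 line for each probe set. In RPS10, RPL14, RPL38, RPL37A and RPS27L at least 1 line that is low in SupB15 lies beside brighter ones that differ little or are lower in SupB15-MR. The SupB15 values of the probe sets that were higher were 4.26 to 8.93 in these genes. The low line of RPS6, at 3.18 in SupB15, passed the filter only through the SupB15-MR arrays, so that its difference supports nothing.

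Several large subunit genes were lower on their bright probe sets. RPL29, a small basic protein of the outer surface, had the lowest gene mean of the 60 (-2.89). Its probe sets had 9.19 and 9.71 in SupB15-MR against 12.77 in SupB15, and 10.37 and 10.79 against 13.03. Both SupB15-MR arrays lay more than 2-fold below SupB15 on both, with differences of -3.32 and -2.45, but the SupB15-MR arrays differed by 0.51 and 0.42 and limma did not call them (adjusted p = 0.0713 and 0.0781). RPL11, which binds MDM2, had 11.38 and 11.46 in SupB15-MR and 13.26 in SupB15. It fell by 1.84 (standard error 0.0607, adjusted p = 0.0201 from limma) on its only probe set. RPL36 had a probe set with 10.70 and 10.96 in SupB15-MR and 13.12 in SupB15, just outside the threshold (-2.29, adjusted p = 0.0509 from limma). RPL8, a protein near the site of peptide bond formation, had 11.39 and 12.17 in SupB15-MR and 13.59 in SupB15. Both were lower, but they differed from each other by 0.78, the widest gap of the 121 probe sets, and the difference of -1.81 was not called (adjusted p = 0.202 from limma). RPL10A fell by 1.13 on 1 probe set and had 0.09 on the other, which was the brighter. RPL36A had 5.37 in both SupB15-MR arrays and 6.56 in SupB15, a fall of 1.19 on a dim probe set with identical SupB15-MR values. By contrast RPL6, RPL19, RPL24, RPL27 and RPL34 had gene means between -0.17 and 0, and RPL41 and RPL39, the smallest proteins of the subunit, had -0.42 and -0.23 at SupB15 levels of 14.21 and 13.54.

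RPL12 and RPS6 each had probe sets at least 2-fold apart in opposite directions. For RPL12, at the base of the stalk, one had 12.13 and 12.32 in SupB15-MR and 13.48 in SupB15 (-1.25, adjusted p = 0.0719 from limma), and the other 9.22 and 9.30 against 7.25, a rise of 2.01 (adjusted p = 0.0185 from limma). RPS6, the target of the S6 kinases, had 8.71 and 8.04 in SupB15-MR on 1 probe set, against a SupB15 value of 3.18, under the filter value of 3.47. It was kept only through the SupB15-MR arrays, and limma did not call it, so that its difference supports nothing here. Its other probe sets were at 13.29 to 13.52 in SupB15 and had differences of -0.26, -0.01 and -1.32. No single value describes these genes, and their means of 0.38 and 0.90 rest on probe sets that disagree. Over the other 3 probe sets of RPS6 the mean was -0.53.

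In the small subunit, limma called 3 of 52 higher (5.77%) and 4 lower (7.69%), and in the large subunit 13 of 69 higher (18.8%) and 6 lower (8.70%), beside 13.1% and 9.71% of all probe sets. The median differences were -0.44 and -0.12, and over the probe sets with a mean of at least 11 they were -0.62 (29 probe sets) and -0.23 (39 probe sets); the gap between subunits was not tested. RPS10 had 12.90 and 12.96 in SupB15-MR and 7.09 in SupB15 on 1 probe set, a rise of 5.84 (standard error 0.0487, adjusted p = 0.00440 from limma). Its other 3 probe sets, at 12.29 to 13.46 in SupB15, had differences of -0.69, -0.29 and -0.01. RPS21 rose by 2.20 on 1 probe set (adjusted p = 0.0255 from limma) and had -1.14 on the brighter one. RPS27, a zinc finger protein, had 11.99 and 11.95 in SupB15-MR and 13.63 in SupB15. It fell by 1.66 (standard error 0.0363, adjusted p = 0.0129 from limma), and its dim second probe set had a difference of -1.21. RPS7, another protein that binds MDM2, fell by 1.56 on 1 probe set (11.44 and 11.49 in SupB15-MR and 13.03 in SupB15, adjusted p = 0.0138 from limma), with -0.64 on the other. RPS18, of the head of the subunit, fell by 1.10, with 13.00 and 13.06 in SupB15-MR and 14.12 in SupB15. RPS16 and RPS23 each had a probe set at least 2-fold lower in both arrays that limma did not call, with -1.64 and -1.34. The brighter probe sets of RPS16 had -0.88 and -0.54, and a dim one had 0.66. For RPS23 the lower probe set was the dimmer one, at 9.17 in SupB15, and the one at 13.98 had -0.53.

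RPS19, the gene most often mutated in Diamond-Blackfan anemia, had 12.44 and 12.62 in SupB15-MR and 13.37 in SupB15 on its brightest probe set. Both arrays were lower, with a difference of -0.84, and the gene mean over 3 probe sets was -0.40. RPS24, also mutated in that disease, as are RPS7, RPS10 and RPS27 above, had -0.70 over its 2 probe sets. RPS14, one of the genes lost in the myelodysplastic syndrome with a deletion of chromosome arm 5q, had 13.26 and 13.40 in SupB15-MR and 13.29 in SupB15 on its brightest probe set. The SupB15 value lay between the SupB15-MR values, and the gene mean over 4 probe sets was 0.27. RPS3, which also acts in DNA repair, had 13.68 in both SupB15-MR arrays and 13.34 in SupB15, and RPS25 had a difference of 0.30.

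Among relatives of the common forms, RPL39L, a relative of RPL39 with its highest levels in the testis, had 7.18 and 7.30 in SupB15-MR and 4.91 in SupB15. It rose by 2.33 on its only probe set (standard error 0.0924, adjusted p = 0.0244 from limma). RPL39 itself had 13.34 and 13.30 in SupB15-MR and 13.54 in SupB15, a difference of -0.23. RPL36AL rose by 1.01 (11.39 and 11.49 in SupB15-MR and 10.43 in SupB15, adjusted p = 0.0463 from limma), with replicate 1 just under 2-fold. RPL22L1 had 8.68 in both SupB15-MR arrays and 9.72 in SupB15. It fell by 1.04 on a probe set with identical SupB15-MR values, and RPL22, a tumor suppressor in T-cell leukemia, had a median near 0 over its 5 probe sets, with 1 called lower at -1.43 and the other 4 between 0 and 0.20. RPS27L, a p53 target, rose by 5.69 on 1 probe set (10.09 and 9.82 in SupB15-MR and 4.26 in SupB15, adjusted p = 0.0218 from limma). On its probe set that was the brightest in SupB15 it had 9.61 and 9.41 in SupB15-MR and 10.49 in SupB15, a difference of -0.98, and its last probe set held 5.66 in all 3 arrays. RPL26L1, RPL7L1 and RPL10L had -0.16, -0.76 and -0.31. RPL3L, the form of striated muscle, had 4.60 in both SupB15-MR arrays and 3.82 in SupB15, near background.

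The SupB15-MR arrays were close to each other across the members. The difference of replicate 2 minus replicate 1 ran from -0.67 to 0.78, and none of the 121 reached 2-fold. It was above 0 for 56 probe sets, below 0 for 34 and exactly 0 for 31. At least 0.4 apart were 10 (8.26%), beside 8.47% of all probe sets kept. Of these 10, 7 were higher in replicate 2, on probe sets of RPL8, RPL18, RPL29 (both), RPL30, RPL35 and RPS23, each of which was lower in both SupB15-MR arrays than in SupB15. RPL35 had 11.82 and 12.35 in SupB15-MR and 12.83 in SupB15, so that replicate 1 alone was 2-fold lower. RPL30 had 12.68 and 13.16 in SupB15-MR and 13.48 in SupB15.

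**Figure D4:**
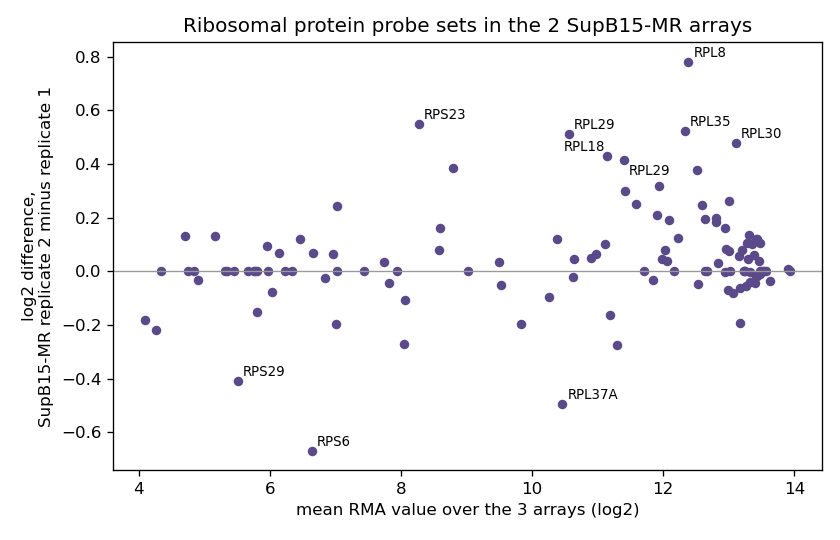
Log2 difference of SupB15-MR replicate 2 minus replicate 1 for the 121 probe sets against the mean level over the 3 arrays, with names for the 10 at least 0.4 apart. RPL8 lies highest at 0.78 and RPS6 lowest at -0.67.

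Other genes of ribosome production were called in both directions, and each share below stands beside 13.1% higher and 9.71% lower of all probe sets. Of 70 probe sets of 36 ribosome assembly factors, limma called 12 higher (17.1%) and 3 lower (4.29%), with a median of 0.03. By gene mean, 5 of the 36 were at least 2-fold higher in both arrays and 1 lower, beside 10.9% and 9.64% of all genes. NOP16 had a mean difference of 2.40 over 4 probe sets that ranged from 0 to 5.02. RPF2 had 1.36, WDR43 1.29 and GAR1, of the complex that makes pseudouridine in rRNA, 1.16. The RNA helicase gene DDX21 had -1.09. For RNA polymerase I and its factors, limma called 5 of 40 probe sets (12.5%) in either direction. POLR1B, its second largest subunit, had -1.35 as a gene mean of probe sets between -2.51 and -0.17. POLR1E had 1.70, with probe sets between 0.31 and 2.71. Among proteins that escort free ribosomal proteins to the nucleolus, the calls were 4 higher (20%) and 1 lower (5%) of 20, with mean differences of 1.94 for TSR2, the partner of RPS26, and 1.79 for PDCD2L, and -1.15 for HEATR3, which helps to import RPL5. Of the 35 probe sets of proteins that bind TOP mRNAs, limma called 10 higher (28.6%) and 5 lower (14.3%). By gene mean, 3 of 7 were at least 2-fold higher in both arrays and 0 lower, beside 10.9% and 9.64% of all genes. These were LARP4B (1.40, probe sets from -1.77 to 3.86), LARP1B (1.14, from -0.76 to 3.46) and LARP4 (1.13, from -1.19 to 2.58). LARP1 had -0.35 as a mean of 4 probe sets between -1.48 and 0.79.

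TOP mRNAs of proteins outside the ribosome had nearly the same median as the ribosomal protein probe sets, -0.22 over 54 probe sets, with 4 called higher and 4 lower (7.41% each). EEF2, the factor that moves the ribosome along the mRNA, had a mean of -2.09 over 2 probe sets (-2.82 and -1.35), and EIF3E and EIF3L, of the initiation factor that binds the small subunit, had -1.21 and -1.17. EIF4B had 1.87, a mean of probe sets between 0.12 and 4.09, and EEF1D had 2.22, a mean of probe sets between -1.07 and 7.24. EIF2S3 had 1.35, with probe sets between 0.67 and 2.49. FAU, whose protein is a fusion that carries the small subunit protein formed by cleavage, had 12.27 and 12.31 in SupB15-MR and 12.85 in SupB15 on its only probe set, a difference of -0.56. GAS5, a noncoding snoRNA host with a TOP start, had a difference of 3.74 on its only probe set, and of the 7 probe sets of such hosts limma called 1 higher and 0 lower, with a median of -0.55. Mitochondrial ribosomal proteins, which build the separate ribosome of that organelle, had a median of 0.31 over 140 probe sets from 75 genes, with 24 called higher (17.1%) and 9 lower (6.43%), beside 13.1% and 9.71% of all. In both arrays, 33 passed 2-fold upward (23.6%) and 17 downward (12.1%), beside 18.3% and 15.0% of all. The difference between the lists was not tested.

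**Figure D5:**
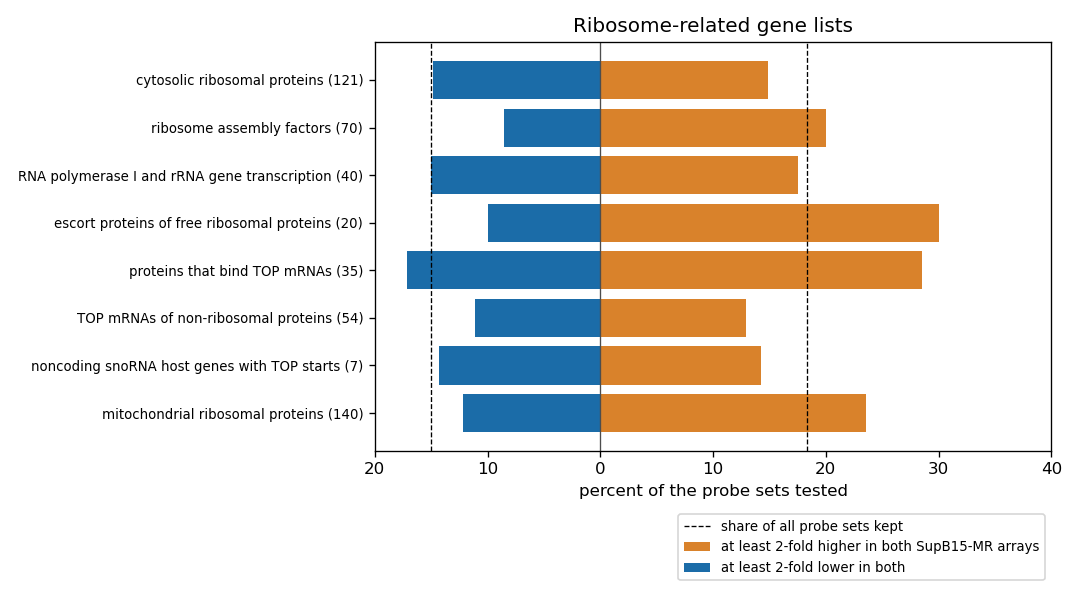
Percent of the probe sets of each list (number tested in brackets) that were at least 2-fold higher (orange, right) or lower (blue, left) in both SupB15-MR arrays than in SupB15, with dashed lines at the shares of all probe sets kept, 18.3% and 15.0%. Cytosolic ribosomal proteins reach 14.9% on either side.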

How the data were processed

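SupB15-MR (2 arrays) and SupB15 (1 array) were compared. The authors amplified and labelled total RNA with the NuGEN Ovation system, hybridized it to Affymetrix HG-U133 Plus 2 arrays and normalized and summarized the probes with RMA (version not given in the sources used here); the deposited values are log2 expression values of 54675 probe sets. Precision is limited by the number of arrays, which have no sequencing depth. Gene names came from the platform's probe table, with symbols updated by gene ID: 41097 probe sets had 1 gene, 1801 several and 11777 none. Removed were 8641 probe sets that did not exceed 3.47, the percentile 20 of the table, in any of the 3 arrays, and 46034 were tested with limma 3.58.1 in R 4.3.3. Its prior SD was 0.00102 on 0.313 degrees of freedom. Residual spread of identical values was set to 0. The fit was also run on simulated data drawn with the same spread for every probe set. These data differ in that, so the simulation does not bear on the calls above. Variation between cultures of SupB15 is not covered by any p-value. Alternatives (centring, quantile normalization, other probe set rules and thresholds, each SupB15-MR array left out) are given at the end.

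The members, the gene lists and the tests were chosen with earlier results of these data known. Named were the 8 largest gene means in each direction, relatives with their partners, stalk genes, RPL11, RPS3, RPS6, RPS14, RPS19, genes with probe sets 2-fold apart in opposite directions and up to 4 genes of each list; the other genes, the level of 11 and the kind of design record were chosen after the values were seen. Start regions are from RefSeq.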

Additional observations from a re-analysis of the deposited data

Results flagged for a closer look

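A further 65 probe sets list a ribosomal protein gene together with another gene, most often an intronic snoRNA, and are outside the comparisons above. Of these, 4 were at least 2-fold higher in both SupB15-MR arrays (6.15%), beside 18.3% of all probe sets kept. At least 2-fold lower were 15 of the 65, beside 15.0% of all, and the median difference was -0.62. The gap to all probe sets was not tested. The 65 probe sets hold 15 ribosomal protein genes with no probe set of their own, and because each names several genes no gene is given.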

How the results depend on the processing

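SupB15 has 1 array, so that none of its spread is measured. No paired analysis was possible because SupB15 has 1 array and shares only 1 replicate number with SupB15-MR. Shares of all probe sets are not given in this section, so that its counts are no result about ribosomal protein genes. With the arrays centred on their medians, limma called 16 probe sets higher and 22 lower, and the median difference was -0.42 over probe sets and -0.41 over genes. After quantile normalization both medians were -0.17. Without probe sets ending in x_at or s_at, 9 passed 2-fold upward and 8 downward, limma called 6 and 4, the medians were 0 over probe sets and -0.16 over genes, and RPL37A had -0.18, RPL7 0.42 and RPLP1 0.66. With the most intense probe set of each gene, chosen over the 3 arrays or in SupB15, 3 genes were at least 2-fold higher and 10 lower, the median over genes was -0.36, and RPL14 (-0.23), RPL37A (-0.33), RPL38 (-0.44), RPS10 (-0.010), RPS27L (-0.98), RPL12 (-1.25) and RPS6 (-0.26) were lower in SupB15-MR instead of higher. The choice in SupB15 uses the value that is then subtracted and so favours lower differences by itself. Limma fitted without probe sets of identical values called 18 higher and 19 lower. With no fold threshold it called 29 in either direction. At 1.5-fold, 23 probe sets, 13 genes and 18 limma calls were higher and 35 probe sets, 15 genes and 17 limma calls lower. A 1-way ANOVA over the 90 members whose SupB15-MR values differ called 0 in either direction after adjustment, against 13 higher and 8 lower at an unadjusted p of 0.05 and 2-fold. Leaving out a SupB15-MR array put the median over probe sets between -0.21 and -0.19; limma then has no residual degree of freedom and was not run. The next settings were chosen after seeing the data. Only with probe sets at a mean of at least 11, 2 were 2-fold higher and 12 lower, limma called 3 higher and 6 lower, 1 gene was higher and 9 lower, the medians were -0.39 over probe sets and -0.47 over genes, and RPL14 (-0.47), RPL37A (-0.33), RPS10 (-0.33), RPL12 (-1.25) and RPS6 (-0.53) were lower. With probe sets designed on a RefSeq mRNA only, 0 were 2-fold higher and 10 lower, limma called 1 and 5, 0 genes were higher and 10 lower, both medians were -0.66, and RPL37A (-0.33), RPL38 (-0.44), RPS10 (-0.69), RPS27L (-0.98), RPL12 (-1.25) and RPS6 (-0.0070) were lower. Over the 31 named genes and all settings, 367 values were computed, of which 249 moved by less than the spread between the SupB15-MR arrays or kept their value. Settings that changed only the filter, the limma fit or the fold threshold could not move a gene mean. Leaving out a SupB15-MR array could not move it by more than that spread. The count of 249 is therefore no measure of stability. In 32 of the 367 values the sign changed, 18 of these from a gene mean of at least 2-fold and 14 from a smaller one, among them RPL22 at 0.0092 or 0.093. The cause of these changes was not tested.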
